A study of Homo sapiens with 8 samples.

Results

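The genes described here are 38 imprinted genes from 17 loci, listed by symbol and taken as the matching Ensembl identifiers among the 57500 genes of the count table. All 38 matched. The rule names the genes and uses no measured value, but the genes were chosen with earlier results of these data known. Their RNA was measured by RNAseq in HEK293T cells, an established line of human embryonic kidney origin with the SV40 large T antigen. The DZNep group held 4 libraries from cells given 100 µM DZNep for 48 h, and the Control group held 4 libraries from cells given vehicle for the same time. DZNep (3-deazaneplanocin A), an analog of adenosine, blocks AHCY, the enzyme that clears S-adenosylhomocysteine, a product and inhibitor of methyltransferases. All libraries came from the same cell line at a single dose and a single time. The labels number the replicates 1 to 4 in each group. The study calls them biological replicates, and the labels do not say how the cultures were kept apart, so p-values measure the spread between these samples.

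An imprinted gene is transcribed mainly from the copy inherited from the mother or mainly from that inherited from the father. The choice is set by DNA methylation laid down in the germ line at imprinting control regions, and at some loci also by histone methylation and by long noncoding RNAs that act on their neighbours. Many imprinted genes act on fetal growth, placental development or the brain, and several sit in clusters in which a noncoding RNA and coding genes are read from opposite parental copies. The counts used here add both copies of a gene, so they give its total RNA and not the copy it came from.

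Library totals lay between 25043058 and 44902779 counts. Mitochondrial transcripts took 7.76%, 3.02%, 3.16% and 13.7% of the counts in Control replicates 1 to 4 and 7.04%, 4.25%, 4.44% and 10.1% in DZNep replicates 1 to 4. Replicates 1 and 4 lay above replicates 2 and 3 in both groups on the second principal component, which held 22.5% of the variance over all genes. In the DZNep group the split was weak, since replicate 1 (9.87) lay nearer to replicate 3 (-13.4) than to replicate 4 (56.8). The split was chosen after the data were seen, and fits within it rest on 2 libraries a group. For the genes with the clearest difference between these pairs of replicates, the values within each pair are also given, and the part that the mitochondrial share plays in them was not tested. All 8 genes listed as markers of HEK293T cells passed the filter on low counts. Their summed level, most of it VIM, was 29290 to 53280 in the Control libraries and 36360 to 48000 in the DZNep libraries. Of these markers, KRT8 rose (log2 fold change 2.44, edgeR's adjusted p = 0.000133) and LHX1 fell (-1.43, adjusted p = 0.00593). UMOD, a marker of adult kidney tubules, was at 0 in every library, and the summed level of 5 adult kidney markers was at most 6.27 in a Control library and lay between 15.3 and 26.3 in the DZNep libraries. Of 3 endothelial markers, VWF went from 10 to 459 counts over the libraries of a group and CDH5 from 2 to 70, so both passed the filter only through the DZNep libraries. PECAM1, the abundant marker of the list, had a log2 fold change of -0.22 (adjusted p = 0.680), and the summed level of the list was 149.6 to 182.6 in Control and 166.7 to 320.6 in DZNep, with none at 0 throughout. CD3E, a marker of T cells, had no count in any Control library and 84 over the DZNep libraries, and the summed level of 4 lymphoid and myeloid markers was 147.8 to 304.0 in Control and 159.5 to 354.4 in DZNep. Whether these markers have a part in the results was not tested. Levels are given as normalized counts, which are counts divided by the size factor of the library, and fewer cells of a type and less RNA per cell cannot be told apart in them.

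Sequences were looked up in RefSeq (GRCh38.p14) for the imprinted genes that moved most, since imprints are carried by the methylation of CpG sites. Of the 38 genes, 24 matched at least 1 promoter window of 300 bases. Among the genes past both thresholds, H19, HYMAI and NLRP2 had one. The stretches are shown 5′ to 3′ on the strand of the gene, with each CpG in capitals, and leave out bases in exons of protein-coding genes. The H19 stretch (chr11:2001267-2001516, minus strand, 250 bases with 4 CpG) ends at the start RefSeq gives and lies in an exon of longer H19 transcripts in GENCODE. The HYMAI stretch (chr6:144008431-144008509, minus strand, 79 bases with 9 CpG) lies in an intron of PLAGL1, which is read from the same strand and has the same window among its promoters. The NLRP2 stretch, from the first of its windows (chr19:54965130-54965251, plus strand, 122 bases with 4 CpG), lies in introns of NLRP2 and of NLRP7.
H19 promoter: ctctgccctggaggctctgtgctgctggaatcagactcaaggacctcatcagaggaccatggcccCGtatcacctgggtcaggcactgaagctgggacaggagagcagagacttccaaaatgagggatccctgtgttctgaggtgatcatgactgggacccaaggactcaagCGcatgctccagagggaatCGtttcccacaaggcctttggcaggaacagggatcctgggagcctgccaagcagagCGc
HYMAI promoter: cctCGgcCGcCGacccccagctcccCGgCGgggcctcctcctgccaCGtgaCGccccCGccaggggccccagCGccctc
NLRP2 promoter: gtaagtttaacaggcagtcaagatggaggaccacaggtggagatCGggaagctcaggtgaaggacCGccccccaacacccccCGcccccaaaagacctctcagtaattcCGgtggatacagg

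The 3 windows differed in CpG content. The whole window of HYMAI and PLAGL1 held 39 CpG, and 8.71% of the 35116 promoter windows held as many or more. The H19 window held 6, as many as or fewer than 66.3% of all windows, and the NLRP2 window held 12, as many as or fewer than 53.1%. The median over all windows was 14. The letters TGCCGC, which ZFP57 binds when they are methylated, were searched on both strands with 2 matches in the HYMAI window and 0 in the others, against 16.7% of all windows with at least 1 match. The core motif of CTCF and the motif of YY1, searched the same way, were in none of the 3 windows, and 0.0655% and 0.327% of all windows held them. The windows cover only 250 bases before and 50 bases after a start. Whether they overlap the imprinting control regions was not examined, so a missing motif says nothing about those regions. H19 also hosts a microRNA gene in an exon, MIR675, whose mature strands are given with the seed, bases 2 to 8, in capitals. The gene counts do not measure them, and their seeds differ.
hsa-miR-675-5p: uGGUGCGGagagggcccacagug
hsa-miR-675-3p: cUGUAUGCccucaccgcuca

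Among the imprinted genes, H19, PEG10, NLRP2 and HYMAI rose and KCNQ1 and IGF2 fell in DZNep-treated cells. The test was edgeR's quasi-likelihood test over all genes, and a gene had to pass 2 thresholds, an adjusted p-value under 0.05 and a log2 fold change above 1 or below -1. Of the 38 genes, 25 passed the filter on low counts and were tested. The 4 that rose are 16% of the 25, and 10.6% of all 19171 genes tested rose. The 2 that fell are 8% of the 25, beside 13.5% of all genes tested. By the adjusted p-value alone, 4 of the 25 were higher and 7 were lower, beside 19.1% and 21.8% of all genes tested. The 5 genes that join KCNQ1 and IGF2 by that measure are SGCE, COPG2, UBE3A, L3MBTL1 and ZDBF2. The median log2 fold change of the 25 was -0.51, and that of all genes tested was -0.03. With the replicate number as a block, 6 were higher and 13 lower at an adjusted p-value under 0.05, beside 28.8% and 30.2% of all genes. Every DZNep library lay above every Control library for 4 of the 25, which were the 4 that rose, and below for KCNQ1, SGCE, COPG2 and UBE3A. Over all genes tested, the groups were apart in these ways for 19.5% and 19.4%. NLRP2 passed the filter through its DZNep libraries and KCNQ1 through its Control libraries, so each could enter the tested genes only as a gene that differed.

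The genes that moved did not share a parental copy. Of 7 genes known as maternally expressed, 5 were tested, and H19 rose and KCNQ1 fell. Of 23 known as paternally expressed, 13 were tested, and PEG10 and HYMAI rose and IGF2 fell. Of 8 whose expressed copy varies by tissue, transcript or person, 7 were tested and NLRP2 rose. Of 6 long noncoding RNAs, 4 were tested and 2 rose, H19 and HYMAI. Of 32 protein-coding genes, 21 were tested, with 2 higher and 2 lower. Over all genes tested, 10.6% rose and 13.5% fell, and no class was tested against these shares or against another class. The classes are small, and HYMAI lost its call in 4 of 17 other fits and IGF2 in 10 of 17.

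**Figure D1:**
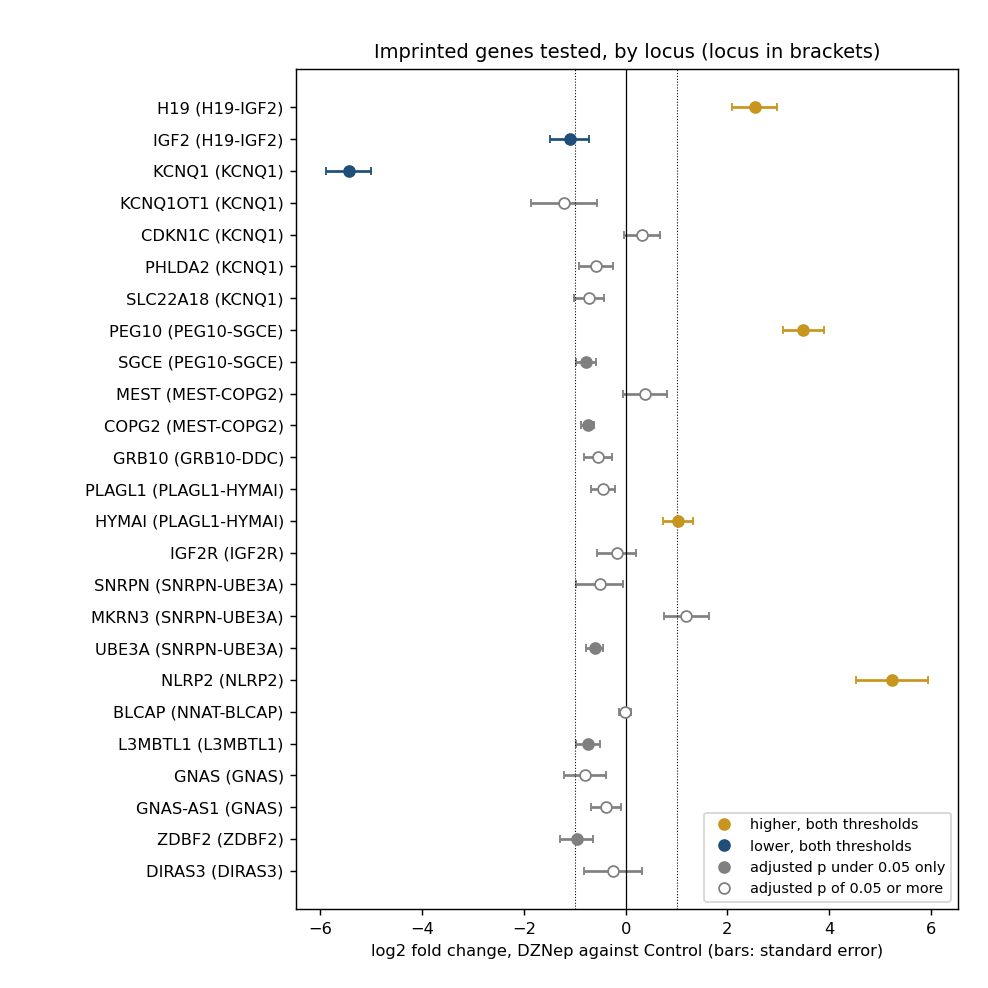
Log2 fold change (x axis, DZNep against Control) of the 25 tested imprinted genes, ordered by locus, with bars of 1 standard error from edgeR's fit. NLRP2, PEG10, H19 and HYMAI lie to the right of 1 and KCNQ1 and IGF2 to the left of -1, while GNAS and KCNQ1OT1 have wide bars.

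Per length of exon, the imprinted genes spanned a wide range of levels in Control cells. GNAS, which encodes the alpha subunit of the stimulatory G protein, was highest with 3512 ± 1957 normalized counts per kb of exon (SD, n = 4). COPG2, a coat protein of transport vesicles, followed with 862 ± 34.1 per kb. GRB10, an adaptor that dampens insulin and IGF signalling, had 453 ± 169 per kb, and IGF2R, the receptor that takes IGF2 into lysosomes, had 273 ± 144 per kb. The ranges of GRB10 and IGF2R overlap within their SD, so their order is not fixed by these libraries. The genes that rose began low, since H19 had 8.92 ± 5.46 per kb, PEG10 4.89 ± 2.25 per kb and NLRP2 0.0425 ± 0.0851 per kb in Control cells. In DZNep-treated cells, H19 reached 51.6 ± 15.3 per kb and PEG10 reached 55.9 ± 20.3 per kb, close to each other within their SD and far below GNAS with 2066 ± 757 per kb. KCNQ1 went from 29.8 ± 5.12 to 0.676 ± 0.513 per kb. IGF2, with 26.2 ± 14.7 per kb, stood near KCNQ1 in Control cells.

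At the H19 and IGF2 locus, the noncoding RNA rose and the growth factor gene fell. H19 (ENSG00000130600, chr11:1995166-2004552, minus strand in GENCODE's GRCh38 annotation) is a maternally expressed long noncoding RNA that is abundant in the fetus. It had 47.8, 10.7, 18.8 and 46.2 normalized counts in Control replicates 1 to 4 and 161, 128, 173 and 253 in DZNep replicates 1 to 4. The highest Control library is far below the lowest DZNep library. The mean went from 30.9 ± 18.9 to 179 ± 53.1 (SD, n = 4), a log2 fold change of 2.54 ± 0.44 (SE, edgeR's adjusted p = 0.00134). Within the numbered pairs, the log2 ratios were 1.74, 3.52, 3.17 and 2.44, and over all other fits the log2 fold change lay between 2.15 and 3.30.

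IGF2 (ENSG00000167244, chr11:2129112-2158391, minus strand) encodes the fetal growth factor IGF2 and is paternally expressed. It had 239, 102, 98.5 and 310.5 normalized counts in the Control libraries and 68.9, 84.6, 99.3 and 102 in the DZNep libraries. Control replicates 1 and 4 are high and Control replicates 2 and 3 lie among the DZNep libraries, so the groups overlap. Its group means were 187 ± 105 and 88.8 ± 15.4 (log2 fold change -1.10 ± 0.38, adjusted p = 0.0393). Within replicates 1 and 4 alone the value was -1.68 (adjusted p = 0.000993), and within replicates 2 and 3 alone it was -0.16 (adjusted p = 0.697). The replicate block gave -0.94 (adjusted p = 0.00862), short of the fold threshold, and the call was lost in 10 of 17 alternative fits. It was -0.98 without Control replicate 1, -0.74 without Control replicate 4 and between -1.17 and -0.97 without any 1 of the DZNep replicates, with adjusted p-values of 0.0534 to 0.111. A share of 25.7% of IGF2's exon bases is also in exons of the readthrough gene INS-IGF2 on the same strand.

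The ratio of the neighbours moved further than either gene, as it must when their means move in opposite directions. In replicates 2 and 3 the shift came mostly from H19, since the pair log2 ratios of IGF2 there were -0.27 and 0.01. In Control cells there were 20.0, 10.5, 19.1 and 14.9 H19 counts per 100 IGF2 counts in replicates 1 to 4. In DZNep-treated cells there were 233, 151, 174 and 247. H19 thus stood below IGF2 in every Control library and above it in every DZNep library. The mean log2 ratio differed by 3.63 between the groups. Because the ratio is taken within a library, it does not depend on the scaling between libraries. Its Control values lie closer together than those of either gene, and H19 and IGF2 were both high in Control replicates 1 and 4.

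**Figure D2:**
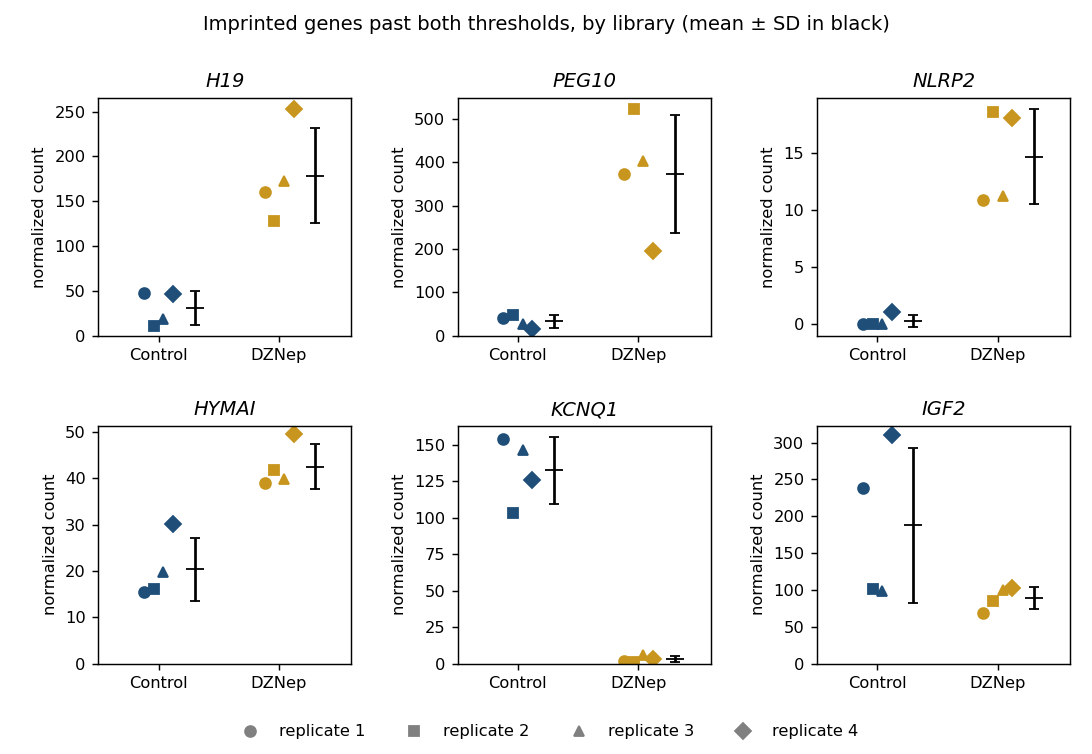
Normalized counts of the 6 imprinted genes past both thresholds in each library (points, with symbols by replicate), with the mean and SD of each group in black beside them. The groups are apart for H19, PEG10, HYMAI, NLRP2 and KCNQ1, while for IGF2 Control replicates 2 and 3 (102 and 98.5) lie among the DZNep libraries (68.9 to 102).

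The KCNQ1 domain lies next to H19 and IGF2 on chromosome 11 and holds a noncoding RNA, KCNQ1OT1, that is read from the paternal copy inside KCNQ1 and silences its neighbours on that copy. KCNQ1 (ENSG00000053918, chr11:2444654-2849105, plus strand), which encodes a voltage-gated potassium channel, fell the most of all 25 genes. It had 154, 104, 147 and 126 normalized counts in the Control libraries and 1.81, 0.805, 6.05 and 3.37 in the DZNep libraries. In raw counts these are 497 over the Control libraries and 13 over the DZNep libraries, so almost no KCNQ1 RNA was counted after treatment. The mean went from 133 ± 22.8 to 3.01 ± 2.28, with a log2 fold change of -5.45 ± 0.43 (edgeR's adjusted p = 1.87e-05) and a range of -6.06 to -5.10 over other fits. The pairs gave -6.06, -6.32, -4.49 and -5.03. Among KCNQ1's exon bases, 3.98% lie opposite an exon of another gene such as KCNQ1OT1.

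KCNQ1OT1 (ENSG00000269821, chr11:2597308-2700003, minus strand) did not pass the test and split by replicate number. It had 763, 175, 206 and 1758 normalized counts in the Control libraries and 244, 321, 232 and 484 in the DZNep libraries. Its log2 fold change was -1.21 ± 0.65 (adjusted p = 0.162). In replicates 1 and 4 alone it was -1.79 (adjusted p = 0.00227), and in replicates 2 and 3 alone it was 0.50 (adjusted p = 0.119). Without Control replicate 2 it passed both thresholds, with -1.54 (adjusted p = 0.0462). KCNQ1 was far lower in DZNep in each numbered pair. There were 20.2, 59.2, 71.3 and 7.15 KCNQ1 counts per 100 KCNQ1OT1 counts in the Control libraries and 0.744, 0.251, 2.60 and 0.698 in the DZNep libraries. KCNQ1OT1 lies wholly inside KCNQ1 on the opposite strand. Without stranded counting, which is not given in the sources used here, reads from KCNQ1 introns could be counted as KCNQ1OT1. Its counts and this ratio are uncertain for that reason.

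CDKN1C, PHLDA2 and SLC22A18, the other listed genes of the domain and all known as maternally expressed, did not pass the test. CDKN1C encodes the cell cycle inhibitor p57 and had a log2 fold change of 0.32 ± 0.36 (adjusted p = 0.506). Its normalized counts were 466, 233, 213 and 674 in Control and 489, 381, 472 and 674 in DZNep, so replicates 2 and 3 differ between the groups and replicates 1 and 4 hardly do. In replicates 1 and 4 alone its value was 0.04 (adjusted p = 0.919), in replicates 2 and 3 alone 0.90 (adjusted p = 0.00493), and with the replicate block 0.45 (adjusted p = 0.0438). PHLDA2, a growth-restraining gene of the placenta, had -0.58 ± 0.33 (adjusted p = 0.185, and 0.0237 with the block). SLC22A18, a membrane transporter gene, had -0.73 ± 0.30 (adjusted p = 0.0731, and 0.00366 with the block), with -0.87 in replicates 1 and 4 alone (adjusted p = 0.0174) and -0.45 in replicates 2 and 3 alone (adjusted p = 0.175). The log2 ratio of KCNQ1 to CDKN1C counts differed by -5.99 between the groups, with every DZNep library below every Control library. Of the 11 other tested genes within 500 kb of KCNQ1, H19 was the only gene that rose and IGF2 the only gene that fell, beside 24.2% of all genes tested that passed both thresholds. This window was chosen after the values were seen.

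PEG10 and SGCE are read in opposite directions from starts 0.247 kb apart on chromosome 7, and both are known as paternally expressed. PEG10 rose and SGCE was lower. PEG10 (ENSG00000242265, chr7:94656325-94669695, plus strand) derives from a retrotransposon, forms capsid-like particles and is needed in the placenta. It had 41.6, 48.2, 26.0 and 15.0 normalized counts in the Control libraries and 374, 524, 403 and 195 in the DZNep libraries. The lowest DZNep library holds several times the count of the highest Control library. PEG10 went from a mean of 32.7 ± 15.0 to 374 ± 136, a log2 fold change of 3.49 ± 0.40 (edgeR's adjusted p = 0.000124), with 3.15, 3.43, 3.93 and 3.65 in the numbered pairs and a range of 3.25 to 3.77 over the other fits.

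SGCE (ENSG00000127990, chr7:94524204-94656572, minus strand), which encodes epsilon-sarcoglycan of the muscle and neuronal membrane, was lower by less than the fold threshold. It had 606, 769.6, 847 and 469 normalized counts in Control and 381, 442, 431 and 339 in DZNep, with no overlap. Group means were 673 ± 169 and 398 ± 47.8, a log2 fold change of -0.78 ± 0.20 (adjusted p = 0.0103). In replicates 1 and 4 alone it was -0.56 (adjusted p = 0.0746) and in replicates 2 and 3 alone -0.93 (adjusted p = 0.00104). There were 6.87, 6.26, 3.07 and 3.20 PEG10 counts per 100 SGCE counts in the Control libraries. In the DZNep libraries there were 98.1, 118, 93.6 and 57.5, so that PEG10 came near SGCE in count. The log2 ratio differed by 4.27 between the groups. Of the 4 other tested genes within 500 kb of PEG10, which were COL1A2, CASD1, SGCE and PPP1R9A, none was called. Over all genes tested, 24.2% passed both thresholds, so 4 genes are too few to show a difference from that share. This window, too, was chosen after the values were seen.

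**Figure D3:**
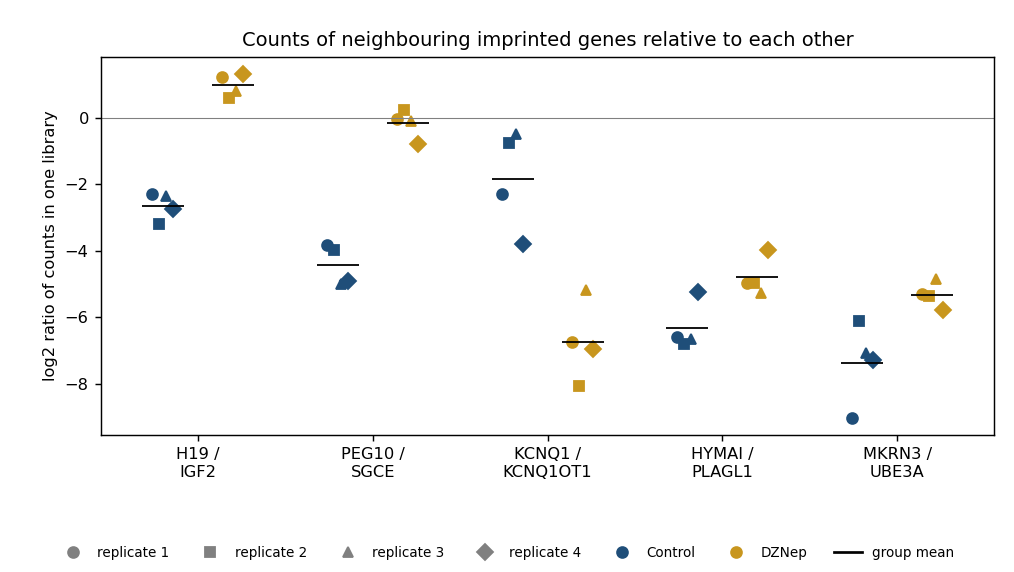
Log2 ratio of the counts of neighbouring imprinted genes within each library (points, by group and replicate), with the group mean as a line. The DZNep libraries lie above the Control libraries for H19 over IGF2, PEG10 over SGCE and MKRN3 over UBE3A and below for KCNQ1 over KCNQ1OT1, and they overlap for HYMAI over PLAGL1.

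PLAGL1 and HYMAI share a paternally expressed promoter on chromosome 6, whose CpG-rich window is the one described with the sequences. HYMAI (ENSG00000283122, chr6:144004916-144008262, minus strand) is a noncoding RNA of unknown function. It had 15.4, 16.1, 19.7 and 30.1 normalized counts in Control and 39.0, 41.9, 39.7 and 49.5 in DZNep. The groups do not overlap, although Control replicate 4 comes near the lowest DZNep library. Its mean went from 20.3 ± 6.78 to 42.5 ± 4.81, a log2 fold change of 1.03 ± 0.30 (adjusted p = 0.0198), and so just past the fold threshold. It lost the call in 4 of 17 other fits, with 0.92 without Control replicate 1 (adjusted p = 0.0550), 0.92 without Control replicate 2, 0.95 without DZNep replicate 4 and 0.93 in replicates 1 and 4 alone (adjusted p = 0.127). In replicates 2 and 3 alone it was 1.15 (adjusted p = 0.0394). HYMAI lies inside PLAGL1 on the same strand. Of its exon bases, 8.63% are shared with another gene on that strand and 7.11% lie opposite another gene. Reads from PLAGL1 introns could also be counted as HYMAI, so these shares do not bound the uncertainty of its counts.

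PLAGL1 (ENSG00000118495, chr6:143940300-144064599, minus strand), a zinc finger factor that restrains growth and acts on other imprinted genes, did not rise with HYMAI. It had 1557, 1836, 2015 and 1153 normalized counts in Control and 1236, 1326, 1540.0 and 778 in DZNep. The groups overlap, but each DZNep library is below the Control library of its number. The log2 fold change was -0.45 ± 0.24 (adjusted p = 0.152, and 0.00261 with the replicate block), with -0.40 in replicates 1 and 4 alone (adjusted p = 0.217) and -0.46 in replicates 2 and 3 alone (adjusted p = 0.0241). There were 0.990, 0.875, 0.978 and 2.61 HYMAI counts per 100 PLAGL1 counts in Control and 3.15, 3.16, 2.58 and 6.36 in DZNep. Control replicate 4 and DZNep replicate 3 make these ranges meet.

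At 7q32, MEST and COPG2 overlap tail to tail. COPG2 (ENSG00000158623, chr7:130506238-130668748, minus strand) had 3654, 3469, 3718 and 3425 normalized counts in Control and 2066, 1948, 2383 and 2268 in DZNep. This is the narrowest spread of the genes that were lower, with the mean going from 3566 ± 141 to 2166 ± 196, which is -0.75 ± 0.13 in log2 (adjusted p = 0.00116). It passed the adjusted p-value in every fit and the fold threshold in none, with values from -0.79 to -0.67. MEST, a paternally expressed hydrolase-like gene, was low, with 16.1 to 38.5 normalized counts in Control and 15.3 to 54.4 in DZNep. Its log2 fold change was 0.39 ± 0.44 (adjusted p = 0.513). Of its exon bases, 27.6% lie opposite exons of other genes such as COPG2 and MESTIT1, and without stranded counting, which is not given in the sources used here, such reads cannot be told apart.

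GRB10 and IGF2R, the adaptor and the clearance receptor of the IGF pathway, were abundant and did not pass the test. GRB10 (ENSG00000106070, chr7:50590063-50793462, minus strand) had 3467, 5949, 5715 and 2607 normalized counts in Control and 3474, 3035, 3656 and 2265 in DZNep. Control replicates 2 and 3 were high and the other Control libraries lay among the DZNep libraries. Its log2 fold change was -0.54 ± 0.27 (adjusted p = 0.142), with -0.06 in replicates 1 and 4 alone (adjusted p = 0.862), -0.84 in replicates 2 and 3 alone (adjusted p = 0.000628) and an adjusted p of 0.0105 with the block. Its neighbour DDC, which makes dopamine and serotonin from their precursors, was not tested, with 21 counts in all Control libraries and 42 in all DZNep libraries. IGF2R (ENSG00000197081, chr6:159969082-160113507, plus strand) had 4296, 10668, 6425 and 3349 normalized counts in Control and 4848, 7923, 6567 and 2905 in DZNep. Both groups are highest in replicate 2 and lowest in replicate 4, and the log2 fold change was -0.18 ± 0.38 (adjusted p = 0.740).

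**Figure D4:**
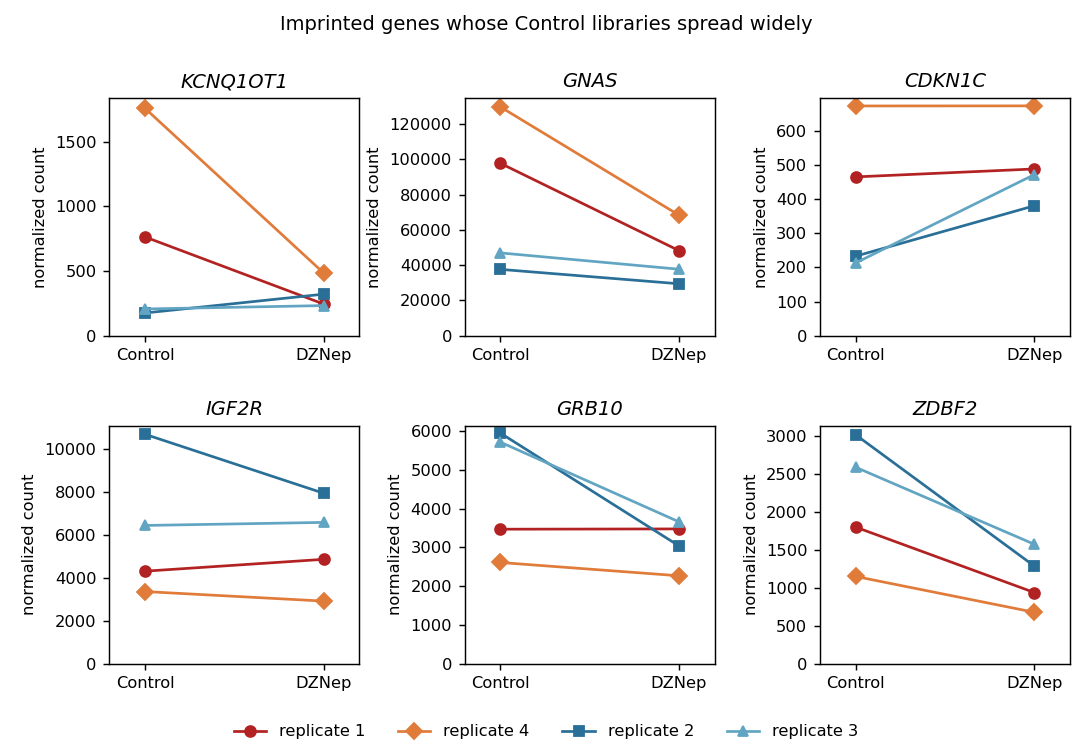
Normalized counts of KCNQ1OT1, GNAS, CDKN1C, IGF2R, GRB10 and ZDBF2 in each library, with symbols by replicate number and a line joining the Control and DZNep libraries of the same number. KCNQ1OT1 and GNAS are highest in Control replicates 1 and 4, GRB10 and ZDBF2 are highest in Control replicates 2 and 3, IGF2R is highest in replicate 2 of each group, and each line of GNAS and ZDBF2 falls from Control to DZNep.

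The Prader-Willi and Angelman locus on chromosome 15 held both abundant genes and genes near 0. UBE3A (ENSG00000114062, chr15:25333728-25439051, minus strand), a ubiquitin ligase that is imprinted in neurons, had 4363, 3643, 3193 and 5130.0 normalized counts in Control and 2626, 2846, 2557 and 2859.7 in DZNep. All DZNep libraries lie below all Control libraries. UBE3A means were 4082 ± 849 in Control and 2722 ± 153 in DZNep, a log2 fold change of -0.61 ± 0.17 (adjusted p = 0.0141, and 0.0532 without DZNep replicate 1), short of the fold threshold. Of its exon bases 9.57% lie opposite exons of other genes such as SNHG14, the antisense transcript that silences it in neurons.

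MKRN3, a paternally expressed ubiquitin ligase known as a brake on puberty, went the other way by a value near the threshold. It had 7.71, 52.7, 23.3 and 32.2 normalized counts in Control and 67.1, 68.5, 88.1 and 51.7 in DZNep. The groups overlap only through Control replicate 2 and DZNep replicate 4. Its log2 fold change was 1.19 ± 0.44 (adjusted p = 0.0530), and it passed both thresholds with the replicate block (1.30, adjusted p = 0.00631), with DESeq2 (1.22, adjusted p = 0.0242) and in 8 of 16 other fits in all, among them the fit without Control replicate 2 (1.63, adjusted p = 0.0113). It had 1.52 in replicates 1 and 4 alone (adjusted p = 0.0354) and 1.01 in replicates 2 and 3 alone (adjusted p = 0.0635). There were 0.177, 1.45, 0.729 and 0.628 MKRN3 counts per 100 UBE3A counts in Control and 2.56, 2.40, 3.44 and 1.81 in DZNep, with no overlap. A share of 25.2% of its exon bases lies opposite another gene. SNRPN, a splicing protein gene whose start holds the control region of the locus, had 34.0 to 50.9 normalized counts in Control and 8.05 to 55.1 in DZNep. Its log2 fold change was -0.51 ± 0.46 (adjusted p = 0.408). These counts are low, but 33.6% of SNRPN's exon bases are shared with other genes on its strand, so unique counting could lower them. SNURF, read from the same transcripts, was at 0 in all libraries, and since 52.1% of its exon bases are shared with other genes on its strand, unique counting could leave it without counts. NDN had 1 count in each group. MAGEL2 had 7.71, 3.57, 5.37 and 3.22 normalized counts in Control and 9.98, 4.03, 22.5 and 12.4 in DZNep and was not tested.

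GNAS was the imprinted gene with the most RNA and had a wide spread in Control cells. Its identifier is ENSG00000087460 and it lies at chr20:58839718-58911192 on the plus strand. It had 97800.5, 37598, 46936 and 129797 normalized counts in Control and 48216, 29416, 37673 and 68342 in DZNep. Replicates 1 and 4 were the highest in each group, and every DZNep library was below the Control library of its number. Its log2 fold change was -0.79 ± 0.41 (adjusted p = 0.147), and with the replicate block it was -0.68 (adjusted p = 0.000682), still short of the fold threshold. It was -0.95 in replicates 1 and 4 alone (adjusted p = 0.0119) and -0.37 in replicates 2 and 3 alone (adjusted p = 0.105). Without Control replicate 2 it passed both thresholds, with -1.03 (adjusted p = 0.0450). GNAS-AS1, the paternally expressed antisense RNA, had -0.39 ± 0.29 (adjusted p = 0.316, and 0.0493 with the block), and 43.1% of its exon bases lie opposite exons of GNAS and other genes. Counts per gene add the different GNAS transcripts, of which some are imprinted and others are not.

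ZDBF2 (ENSG00000204186, chr2:206274663-206314427, plus strand) is a paternally expressed zinc finger gene that acts on feeding in newborn mice. It passed the adjusted p-value and came close to the fold threshold. It had 1798, 3014, 2586 and 1147 normalized counts in Control and 935, 1283, 1571 and 675 in DZNep. The groups overlap, since Control replicate 4 lies among the DZNep libraries, but each pair falls, with log2 ratios of -0.94, -1.23, -0.72 and -0.77. The mean went from 2136 ± 829.8 to 1116 ± 393, a log2 fold change of -0.96 ± 0.33 (adjusted p = 0.0383). Leaving out 1 library moved it between -1.18 and -0.75. It passed both thresholds without Control replicate 4 (adjusted p = 0.00866) or DZNep replicate 3 (adjusted p = 0.0322), and missed the adjusted p-value without any other library (0.0508 to 0.114). In replicates 1 and 4 alone it was -0.85 (adjusted p = 0.0173), and in replicates 2 and 3 alone it was -1.01 (adjusted p = 0.000282), past both thresholds.

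On chromosome 20, BLCAP was the steadiest of the imprinted genes. BLCAP (ENSG00000166619, chr20:37492472-37527931, minus strand), a small protein gene that contains the imprinted NNAT in an intron, had 1374, 1368, 1279 and 1321 normalized counts in Control and 1349, 1344, 1299.9 and 1394 in DZNep. The groups overlap fully, with 1335 ± 44.2 and 1347 ± 38.4 and a log2 fold change of -0.02 ± 0.12 (adjusted p = 0.930). NNAT, a paternally expressed membrane protein gene of the brain, was not tested by edgeR, with 1.54, 6.25, 6.27 and 0 normalized counts in Control and 9.07, 25.0, 6.05 and 21.4 in DZNep. DESeq2, which kept it, called it higher with 2.05 (adjusted p = 0.0404). L3MBTL1, a paternally expressed chromatin reader, had 69.4, 107, 94.1 and 85.9 in Control and 46.3, 71.7, 50.1 and 49.5 in DZNep, which overlap through DZNep replicate 2. Its log2 fold change was -0.74 ± 0.24 (adjusted p = 0.0304), with adjusted p-values of 0.0660 to 0.106 without Control replicate 2 or 3 or DZNep replicate 1, 3 or 4.

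NLRP2, a gene of the NOD-like receptor family that is active in oocytes and early embryos, went from near absence to low counts. It is ENSG00000022556 at chr19:54953130-55001142, plus strand. It had 0, 0, 0 and 1.07 normalized counts in the Control libraries and 10.9, 18.5, 11.2 and 18.0 in the DZNep libraries. A single count in all Control libraries stands against 64 in all DZNep libraries, a ratio of 55.6 after scaling with a 95% exact counting interval of 9.63 to 2230, which covers counting error only. edgeR's adjusted p was 0.000311, and its fitted log2 fold change of 5.24 ± 0.71 depends on the prior count. In its surroundings of 500 kb, a window chosen after the values were seen, 2 of 25 other tested genes rose, DNAAF3 and PTPRH, and 3 fell, beside 24.2% of all genes tested that passed both thresholds.

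The DLK1-MEG3 and PEG3 clusters were silent or nearly so in both groups, and the single genes NAP1L5 and DIRAS3 were low. At DLK1-MEG3 on chromosome 14, the noncoding RNA MEG3 had 15 counts in all Control and 13 in all DZNep libraries, and MEG8 had 0 and 3. DLK1, a Notch-related membrane protein gene, had 3 and 16, a ratio of 4.63 with a counting interval of 1.33 to 24.8. RTL1, a retrotransposon-derived placental gene, had no count in any Control library and 2.72, 0.805, 6.05 and 1.12 normalized counts in the DZNep libraries. Set against 3 counts over the Control group, the limit that a count of 0 allows, its 12 DZNep counts were 3.48-fold higher. This value leaves out the counting error of the DZNep counts and is no lower bound. Of RTL1's exon bases, 32.8% lie opposite other genes. At PEG3, the zinc finger genes PEG3 and ZIM2 had no count in any library and USP29 had 1 in Control and 0 in DZNep. PEG3 and ZIM2 share 12.9% and 41.2% of their exon bases on the same strand, which could keep some reads from being counted. NAP1L5 had 22 counts in Control and 8 in DZNep, and DIRAS3, a growth-restraining GTPase gene, had 3.57 to 37.6 and 11.3 to 23.6 normalized counts with a log2 fold change of -0.25 ± 0.56 (adjusted p = 0.752). Of the 13 genes that were not tested, the highest normalized count in any library was 25.0, so differences in them were not detectable at this depth unless large.

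The listed factors that keep imprints in place, or that set or remove DNA and histone methylation, were mostly present in both groups. Of 29 such genes, 23 were tested, and 1 rose and 2 fell, beside 10.6% and 13.5% of all genes tested, with a median log2 fold change of -0.04. By the adjusted p-value alone, 5 were higher and 3 were lower, beside 19.1% and 21.8%. DNMT1, the methyltransferase that copies DNA methylation after replication, had 11202 ± 1877 normalized counts in Control and 10209.9 ± 2027 in DZNep, a log2 fold change of -0.16 ± 0.19 (adjusted p = 0.527). DNMT3A, a methyltransferase that sets new DNA methylation and is named after its values were seen, was lower by just less than the fold threshold, with 1573 ± 156 in Control and 832 ± 41.9 in DZNep and no overlap (-0.95 ± 0.13, adjusted p = 0.000358). UHRF1, which brings DNMT1 to replicated DNA, had 4529 ± 281 and 4602 ± 671 (adjusted p = 0.983), and TRIM28, the corepressor at imprinting control regions, had 20746 ± 3079 and 20609 ± 3180.4 (adjusted p = 0.883). ZNF445, a zinc finger protein that recognizes these regions, had 0.53 ± 0.19 (adjusted p = 0.0506, and 0.00306 with the block). ZFP57, the other such protein, had 3 counts in each group and was not tested. CTCF, the insulator protein that binds the unmethylated H19 control region, was higher by less than the fold threshold, with 3135 ± 827 in Control, 6009 ± 1088 in DZNep and 0.91 ± 0.21 (adjusted p = 0.00664). The gene that rose was its testis paralog CTCFL, from 23.6 ± 12.2 to 89.7 ± 25.3 (1.89 ± 0.44, adjusted p = 0.00644). The genes that fell were chromatin remodelers, ATRX from 7504 ± 3546 to 2222 ± 459.6 (-1.79 ± 0.32, adjusted p = 0.00164) and HELLS from 5689.8 ± 1109 to 2381 ± 434 (-1.29 ± 0.19, adjusted p = 0.000531).

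Other imprinted genes and close neighbours of the clusters moved in both directions. Of 54 listed, 51 matched and 32 were tested, and 4 rose and 5 fell, beside 10.6% and 13.5% of all genes tested, with a median of -0.03. ASB4, an imprinted gene next to the PEG10 cluster, rose from 2 counts in all Control libraries to 147, a ratio of 63.9 with a counting interval of 17.4 to 532. CPA4, a carboxypeptidase gene near MEST and COPG2, rose from 3 to 79 counts, a ratio of 22.9 with an interval of 7.55 to 113. Both passed the filter on low counts only through the DZNep libraries. LPAR6, a lysophosphatidic acid receptor gene inside RB1, rose from 31.4 ± 14.2 to 91.2 ± 5.81 normalized counts (1.52 ± 0.32, adjusted p = 0.00354), while RB1, the retinoblastoma gene that hosts it, fell from 2293 ± 613 to 921 ± 170.1 (-1.34 ± 0.22, adjusted p = 0.000903). OSBPL5, an oxysterol-binding protein gene beyond PHLDA2 in the KCNQ1 domain, fell from 574 ± 72.0 to 68.4 ± 23.7 (-3.09 ± 0.26, adjusted p = 2.53e-05). MCTS2 fell from 146 ± 84.2 to 19.4 ± 1.88 (-2.93 ± 0.44, adjusted p = 0.000516), and as a retrogene it may share reads with its parent gene. FAM50B also rose (1.38 ± 0.16) and KLF14 (-1.18 ± 0.33) and BEGAIN (-1.07 ± 0.27) also fell, and these were named after their values were seen.

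In the IGF pathway, in which IGF2, IGF2R and GRB10 act, 18 of 20 other listed genes were tested, and 1 rose and 4 fell, beside 10.6% and 13.5% of all genes tested, with a median of -0.46. PAPPA2, a protease that frees IGF from its binding proteins, rose from 4.81 ± 1.63 to 43.3 ± 6.95 normalized counts (3.13 ± 0.34, adjusted p = 9.84e-05), and with 18 counts over the Control libraries it passed the filter only through the DZNep libraries. IRS4, the insulin receptor substrate for which these cells are known, fell from 10556 ± 9212 to 1838 ± 766 (-2.55 ± 0.65, adjusted p = 0.0104), with a wide spread among the Control libraries and groups that overlap. IRS2, a further substrate, fell from 526 ± 134 to 185 ± 21.4 (-1.54 ± 0.21, adjusted p = 0.000305). IGFBP5, a binding protein for IGF, fell from 3311 ± 89.0 to 1434 ± 332 (-1.23 ± 0.18, adjusted p = 0.000421). IGFBP2, named after its values were seen, fell from 4915 ± 1415 to 2241 ± 663 (-1.16 ± 0.27, adjusted p = 0.00603).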

How the data were processed

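The 8 HEK293T libraries of RNAseq were grouped by the treatment and replicate number in the labels. The labels name DMEM as the medium and the methods name RPMI. The authors used Trimmomatic 0.36 for trimming, STAR 2.5.2b for alignment to GRCh38 and featureCounts (Subread 1.5.2) for unique reads in exons, and deposited the resulting raw counts of 57500 genes. Annotation release, library type and strandedness are not given in the sources used here. The second table the authors deposited holds a signal, counts divided by 1 size factor per library, for 19118 genes, and these size factors gave the normalized counts. Symbols and coordinates are from GENCODE's annotation of GRCh38 (56410 of 57500 identifiers matched).

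No 2 libraries of a group agreed within sampling noise (chi-square per degree of freedom of at least 23.9). Totals ranged from 25043058 to 44902779 counts, and intervals cover counting error only. In R 4.3.3, edgeR 4.0.16 was run with TMM and filterByExpr on 19171 genes and Benjamini-Hochberg adjustment. On simulated counts of this comparison it recovered 198 of 200 changed genes and called 6 unchanged ones among 18747 tested. How recovery varies with the size of a change, the level of a gene or the share of genes changed was not tested. The simulation changed 200 genes, while in the data 3656 were higher and 4171 lower by the adjusted p-value alone. Its recovery therefore does not bear on calls near the fold threshold, such as HYMAI and IGF2, or at low counts, such as NLRP2. SE is the log2 fold change over the square root of F. Deviations of same-numbered libraries correlated by 0.14, 0.49, 0.43 and 0.67, and on this basis libraries of 1 number were treated as pairs. Some libraries of different numbers correlated as well, with 0.53 for Control 1 and DZNep 4, 0.40 for Control 2 and DZNep 3 and 0.34 for Control 3 and DZNep 2. Pair ratios used a pseudocount of 0.5. Alternatives were DESeq2 1.42.0, limma 3.58.1 on log2(normalized count + 1), other scalings and filters, the replicate block, no fold threshold, leaving out each library, and, chosen after seeing the data, replicates 1 and 4 alone and 2 and 3 alone. The imprinted genes and the gene lists were chosen with earlier results of these data known. Every library's value is given for genes past both thresholds and for the 8 others with the highest means. Values of further imprinted genes were given after they were seen. Listed genes past both thresholds are named, up to 3 per direction, with DNMT1, UHRF1, TRIM28, ZNF445, ZFP57 and CTCF in any case. Of the marker lists not described with the results, 0 of 3 tested lymphoid and myeloid markers and 1 of 4 fibroblast markers (LUM) rose, and both liver markers were too low to test.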

Additional observations from a re-analysis of the deposited data

Results flagged for a closer look

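The values of 3 genes stood apart from the rest of their group of 4 libraries by Dixon's criterion at the 95% level. Over the 50 groups tested, chance alone would flag about 1 in 20. SLC22A18 had 344.2 normalized counts in DZNep replicate 4, beside 194.1 to 218.5 in the other DZNep libraries. L3MBTL1 had 71.68 in DZNep replicate 2, beside 46.25 to 50.09 in the others. NLRP2 had 1.074 in Control replicate 4, which is a single count, and 0 in the other Control libraries.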

How the results depend on the processing

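Among the fits of the 25 tested imprinted genes under other settings, 376 kept direction and side of the thresholds, 14 lost a call, 14 gained a call and 17 reversed. H19, PEG10, KCNQ1 and NLRP2 kept their calls in every fit that tested them. The number of genes that rose, 4, was 3 to 6 under all settings. The number that fell, 2, was 1 with library sizes alone, with at least 10 counts in every library, with limma and with the replicate block, 7 without a fold threshold, and 1 to 4 with a library left out. It was 1 without Control replicate 1, DZNep replicate 1, DZNep replicate 2 or DZNep replicate 4. It was 4 without Control replicate 2, where KCNQ1OT1 (-1.54, adjusted p = 0.0462) and GNAS (-1.03) joined KCNQ1 and IGF2. With the replicate block, 5 genes rose and 1 fell past both thresholds, and 19 passed the adjusted p-value alone in place of 11. The added genes were MKRN3, CDKN1C, PHLDA2, SLC22A18, GRB10, PLAGL1, GNAS and GNAS-AS1, and the block changed no other call except that IGF2 lost the fold threshold. Reversed log2 fold changes belonged to genes without a call. KCNQ1OT1 reached 0.50 in replicates 2 and 3 alone. IGF2R reached 0.044 in replicates 1 and 4 alone. BLCAP reached 0.0087 with median-ratio size factors, 0.062 using library sizes only, 0.015 with at least 10 counts in every library, 0.0096 with no filter, 0.015 with DESeq2, 0.012 with limma and 0.042 in replicates 1 and 4 alone. DIRAS3 reached 0.093 with limma and 0.51 in replicates 2 and 3 alone. With a library left out, values ranged from -0.012 to 0.68 for MEST, from -0.39 to 0.22 for IGF2R, from -0.039 to 0.0080 for BLCAP and from -0.62 to 0.26 for DIRAS3. The causes were not tested. No scaling moved the median of all genes by over 0.1. Depth limits the 13 untested genes, and 4 libraries a group limit all.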
